A study of Mus musculus with 8 samples.

Results

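The 4 receptor genes of the ERBB family, Egfr, Erbb2, Erbb3 and Erbb4, and the feedback inhibitor gene Errfi1 were followed in mouse uterine stromal cells sequenced as polyadenylated RNA. The 5 genes were taken by symbol from count tables of 23420 gene symbols. Of the 8 libraries in the series, 4 carry the label Erbb3f/f and 4 the label Erbb3d/d, and all are labelled day 3. By common usage f is an Erbb3 allele flanked by recombinase sites and d is the allele after recombination. The labels name no Cre driver, strain, age or pooling of animals, and give no event from which day 3 is counted. They do not say whether libraries of a genotype came from separate animals, so p-values measure the spread between these libraries, which may be technical.

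ERBB receptors are tyrosine kinases of the cell surface that pair up when a growth factor of the EGF or neuregulin family binds. EGFR and ERBB4 bind ligand and have active kinases, ERBB2 has no known ligand and serves as a partner, and ERBB3 binds neuregulins but has little kinase activity and signals through its partner. ERRFI1, also called MIG6, binds the kinase domain of active receptors and restrains them, and its gene is induced by the signalling it limits. In the uterus, ERBB receptors and their ligands are known from work on implantation and on epithelial and stromal responses.

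Reads assigned to genes numbered 8578575 to 12854367 per library. After a filter on low counts 14598 genes were tested, among them 4 of the 5 genes followed here, all but Erbb4. The quasi-likelihood test of edgeR called no gene at an adjusted p of 0.05, a background of 0%, while DESeq2 called 1.79% of the genes and no member. Stromal transcripts were abundant in all libraries, with a summed level over 18 markers of 16400 to 20070 CPM (the read count scaled to a common library size) in Erbb3f/f against 13230 to 17870 CPM in Erbb3d/d. Markers of other cells were present too: 20 epithelial markers summed to 1054 to 1673 CPM in Erbb3f/f against 1551 to 2531 CPM in Erbb3d/d, and 12 smooth muscle markers to 2098 to 3272 CPM and 3317 to 6622 CPM. The smooth muscle sums did not overlap between the genotypes (two-sided exact permutation test on the log2 scale, p = 0.0286). The epithelial sums did (p = 0.114 in the same exact test). The first is the smallest p that 4 against 4 libraries can give, and none was adjusted over the marker lists. Endothelial, immune, Schwann cell and stromal sums had p = 0.857, 0.543, 0.571 and 0.229 in that exact test. Endothelial markers (13) summed to 260.8 to 572 CPM in Erbb3f/f against 280.7 to 616 CPM in Erbb3d/d, and the 15 immune markers found in the tables to 2096 to 4408 CPM and 2934 to 3517 CPM. In bulk RNA, fewer cells of a type and less RNA per cell cannot be told apart.

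Erbb3, the targeted gene, was present in every library of both genotypes. It is on the minus strand of chromosome 10, from 128567523 to 128589652 (GRCm38, GENCODE vM21). Erbb3 had 7.40, 10.6, 8.25 and 12.3 CPM across Erbb3f/f replicates 1 to 4, against 7.37, 14.3, 17.6 and 16.2 CPM across Erbb3d/d replicates 1 to 4. The highest levels were in 3 libraries labelled Erbb3d/d, and Erbb3d/d replicate 1 had the lowest of all, so the genotypes overlapped. Counting error alone gives Erbb3d/d replicate 1, with 75 reads, a 95% Poisson interval of 5.80 to 9.24 CPM, and Erbb3d/d replicate 3, with 224 reads, one of 15.4 to 20.1 CPM. These intervals cover counting error only, and the spread inside Erbb3d/d went beyond it.

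The log2 fold change of Erbb3, Erbb3d/d over Erbb3f/f, was 0.53 (SE 0.28; adjusted p = 0.485, edgeR). Its 95% interval ran from -0.08 to 1.145, or 0.948 to 2.21 in fold, so a whole-gene reduction larger than that lower bound lay outside it. Read counts over the whole gene do not separate the exons removed by recombination from those that stay, and the libraries are therefore named by their labels. The estimate moved with the markers of other cells. With the summed epithelial markers as a covariate it was 0.06 (SE 0.32, 95% interval -0.66 to 0.78), and with the smooth muscle markers it was 1.014 (SE 0.33, 95% interval 0.28 to 1.75). Its adjusted p in edgeR's test was 0.999 and 0.457 in these fits. As the smooth muscle sums did not overlap between the genotypes, the second fit cannot fully separate them from the genotype.

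Egfr, which encodes the receptor for EGF, had the largest difference of the members in size. The gene is on the plus strand of chromosome 11, from 16752203 to 16918158. Egfr had 134, 164, 126 and 91.4 CPM in Erbb3f/f replicates 1 to 4. It had 70.5, 111, 48.0 and 63.3 CPM across Erbb3d/d replicates 1 to 4. In 3 of the 4 libraries labelled Erbb3d/d the level lay below the lowest Erbb3f/f library, and Erbb3d/d replicate 2 lay inside the Erbb3f/f range. The mean was 129 ± 29.9 CPM for Erbb3f/f and 73.3 ± 27.0 CPM for Erbb3d/d (SD, n = 4).

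The log2 fold change of Egfr came to -0.82 (SE 0.26, 95% interval -1.40 to -0.24; adjusted p = 0.314 by edgeR). In absolute size it exceeded 94.9% of the tested genes. An exact permutation test on log2(CPM + 0.5) gave p = 0.0571. The call depended on 1 library: without Erbb3d/d replicate 2 the log2 fold change was -1.09 (SE 0.20) and the adjusted p 0.0355 in edgeR's test, in a fit that called 1.75% of its genes. With the epithelial covariate the log2 fold change of Egfr was -0.51 (SE 0.305, 95% interval -1.21 to 0.19). Its adjusted p in edgeR's test was 0.999 in that fit.

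Erbb2, the partner receptor gene, stood at a middle level with little spread. The gene is on the plus strand of chromosome 11, from 98412470 to 98437716. Erbb2 had 34.2, 31.1, 22.1 and 29.85 CPM across Erbb3f/f replicates 1 to 4, against 31.4, 37.7, 39.0 and 42.3 CPM across Erbb3d/d replicates 1 to 4. Its level in Erbb3d/d replicates 2 to 4 was above every Erbb3f/f library, and that in Erbb3d/d replicate 1 lay among them. The log2 fold change came to 0.36 (SE 0.15, 95% interval 0.02 to 0.70; adjusted p = 0.408 by edgeR). With the epithelial covariate it was 0.08 (SE 0.16). Exons of Erbb2 overlap those of Mien1 on the other strand, and the libraries were non-directional, so reads from the shared stretch cannot be told apart and the count is uncertain to that extent.

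Erbb4, the other receptor for neuregulins, was at the limit of detection. It had 0 reads in all 4 libraries labelled Erbb3f/f and in Erbb3d/d replicates 1 and 2, 3 reads in Erbb3d/d replicate 3 and 1 read in Erbb3d/d replicate 4. A count of 0 over the Erbb3f/f libraries together allows a level of up to 0.0725 CPM, taking 3 reads as the floor. The 4 reads of the Erbb3d/d libraries together correspond to 0.0934 CPM, with a Poisson interval of 0.0254 to 0.239 CPM. The gene spans chromosome 1 from 68032186 to 69108059 on the minus strand and was too low for the genome-wide test, so no difference was detectable at this depth.

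**Figure D1:**
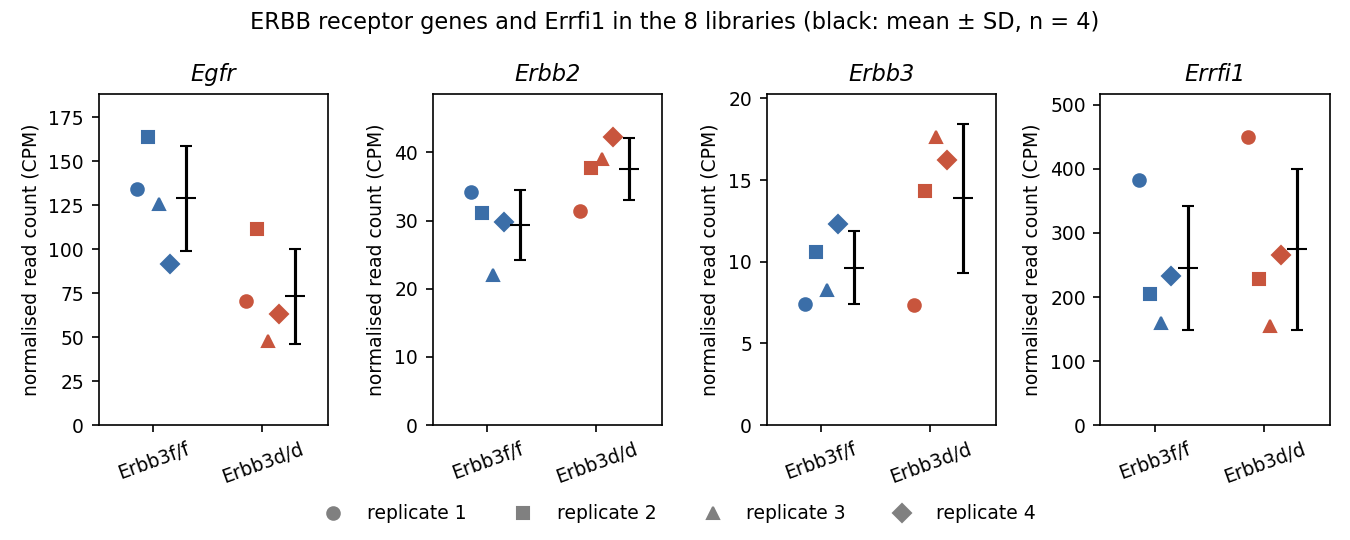
Normalised read counts (CPM, y axis from 0) of Egfr, Erbb2, Erbb3 and Errfi1 in each library, by genotype on the x axis. Symbols mark the replicate number, and black bars the mean ± SD of 4 libraries. Egfr in Erbb3d/d replicate 2 (111 CPM) lies inside the Erbb3f/f range, and the other Erbb3d/d libraries lie below it.

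Unadjusted p-values under 0.05 in edgeR's test were found for 2 of the 4 tested members, Egfr and Erbb2, against a background of 11.6% of all tested genes (6.64% higher and 4.97% lower in Erbb3d/d; Erbb2 was the higher and Egfr the lower). None of the 4 separated the genotypes completely, against 5.04% of all tested genes (2.56% higher and 2.48% lower).

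The receptors were then compared with each other in CPM per kb of merged exons, since a longer transcript yields more reads. In Erbb3f/f the level of Egfr was 11.4 ± 2.635 CPM per kb, that of Erbb2 5.625 ± 0.989, that of Erbb3 1.602 ± 0.372, and that of Erbb4 was listed at 0 (SD, n = 4). In Erbb3d/d the level of Egfr was 6.47 ± 2.39 CPM per kb, that of Erbb2 7.21 ± 0.880 and that of Erbb3 2.31 ± 0.758 (SD, n = 4). In all 4 Erbb3f/f libraries Egfr came before Erbb2 and Erbb2 before Erbb3. In Erbb3d/d replicates 3 and 4 Erbb2 came before Egfr, and the means of both genes in Erbb3d/d differed by less than the spread of Egfr. Erbb3 was below Erbb2 in every library, by 2.55 to 5.33 times. The order within each library was the same with the longest annotated transcript as the length.

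The share of Egfr in the summed level of the 4 receptor genes per kb was 60.4%, 65.2%, 66.5% and 50.9% in Erbb3f/f replicates 1 to 4. It was 46.2%, 50.5%, 28.9% and 34.1% across Erbb3d/d replicates 1 to 4. Every Erbb3d/d library was below every Erbb3f/f library, although Erbb3f/f replicate 4 and Erbb3d/d replicate 2 were close. The share of Erbb2 was 33.4%, 26.9%, 25.3% and 36.2% in Erbb3f/f, and 44.7%, 37.2%, 51.0% and 49.45% in Erbb3d/d, again without overlap. The mean difference was -20.8 percentage points for Egfr and 15.15 for Erbb2. Each had p = 0.0286 in a two-sided exact permutation test, the smallest that 4 against 4 libraries can give. Adjusted over the 6 quantities of this comparison it was p = 0.0857 in both cases in the exact test, which did not pass 0.05. The shares of a library add up to the whole, so a lower Egfr share by itself raises the shares of the other receptors. The Egfr and Erbb2 results are therefore not independent, although the adjustment counted them separately. In CPM, the levels of Egfr and Erbb2 each overlapped between the genotypes (exact permutation test on the log2 scale, p = 0.0571 for each).

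The share of Erbb3 was 6.26% to 12.9% in Erbb3f/f against 9.10% to 19.99% in Erbb3d/d and overlapped between the genotypes (exact permutation test, p = 0.0857, adjusted p = 0.171). The log2 ratio of Erbb3 to Erbb2 was -1.82 ± 0.411 in Erbb3f/f against -1.71 ± 0.408 in Erbb3d/d (SD, n = 4), a difference smaller than the spread (exact permutation test, p = 0.543). The direction of that difference changed when Erbb3f/f replicate 1 or Erbb3d/d replicate 3 was left out. The summed receptor level was 15.8 to 22.2 CPM per kb in Erbb3f/f against 13.5 to 19.4 CPM per kb in Erbb3d/d and overlapped. The ratio of Egfr to Erbb2 per kb, chosen after its values were seen and therefore not tested, was 1.41 to 2.62 in Erbb3f/f against 0.566 to 1.36 in Erbb3d/d.

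**Figure D2:**
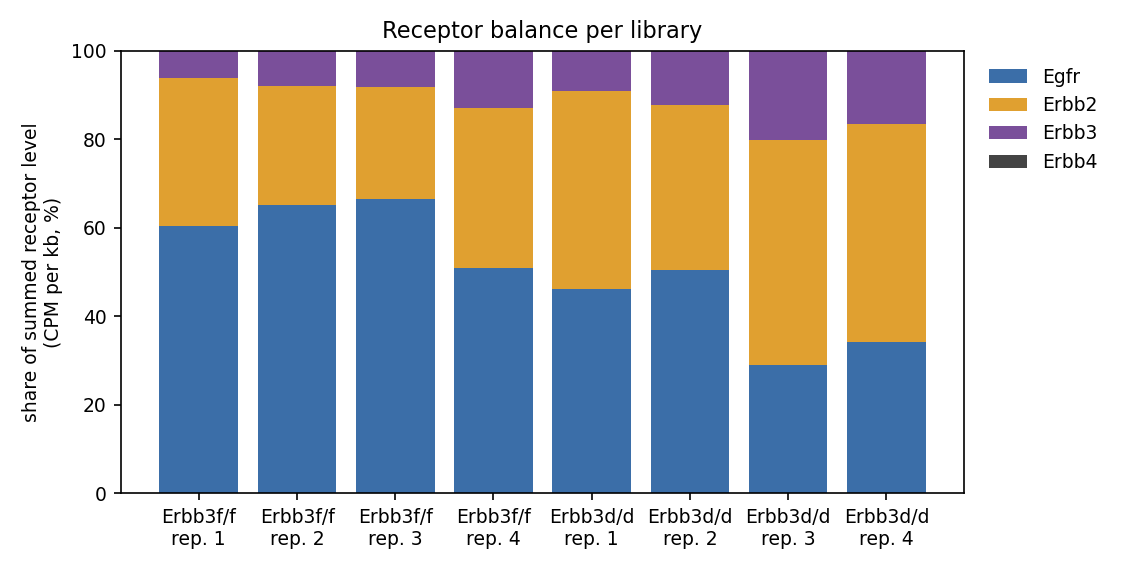
Share of each receptor gene in the summed receptor level (CPM per kb of merged exons, %) in each of the 8 libraries, drawn as stacked bars. The Egfr share is 50.9% or more in the Erbb3f/f libraries and 50.5% or less in the Erbb3d/d libraries; the Erbb4 share is too small to see.

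Errfi1, the feedback inhibitor gene, was the most abundant of the members and differed more between libraries than between genotypes. It is on the plus strand of chromosome 4, from 150853919 to 150868892. Errfi1 had 382, 205, 159 and 233 CPM across Erbb3f/f replicates 1 to 4, against 450, 228, 154 and 266 CPM across Erbb3d/d replicates 1 to 4. The level was highest in the libraries numbered 1 and lowest in those numbered 3 in both genotypes, a span of 2.92 times. The log2 fold change of Errfi1 came to 0.17 (SE 0.35, 95% interval -0.63 to 0.97; adjusted p = 0.887 by edgeR). The direction was not stable. Without Erbb3d/d replicate 1, the highest library, the log2 fold change was -0.18 (SE 0.31). Without Erbb3f/f replicate 1, the highest of its genotype, it was 0.47 (SE 0.33). With the smooth muscle covariate it was -0.79 (SE 0.26, adjusted p = 0.475 in edgeR's test). The smooth muscle sums did not overlap between the genotypes, so the covariate fit cannot fully separate them from the genotype. The 2 libraries numbered 1 were also high in Fos, an immediate early gene, at 1760 and 2550 CPM against 747 to 1500 CPM in the other Erbb3f/f and 1310 to 1860 CPM in the other Erbb3d/d libraries. Erbb3d/d replicate 1 also had the highest smooth muscle sum, 6622 CPM. The relation of Errfi1 to Fos was not tested, and that to the smooth muscle sum is given below with the marker lists. What caused the level of Errfi1 was not tested.

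The inhibitor gene was then set against Egfr. The log2 ratio of Errfi1 to Egfr per kb was 3.17, 1.98, 1.999 and 3.01 across Erbb3f/f replicates 1 to 4, against 4.34, 2.70, 3.34 and 3.73 across Erbb3d/d replicates 1 to 4. Errfi1 exceeded Egfr per kb in every library, from 3.95 times in Erbb3f/f replicate 2 to 20.2 times in Erbb3d/d replicate 1. The mean log2 ratio was 2.54 ± 0.638 in Erbb3f/f against 3.53 ± 0.688 in Erbb3d/d (SD, n = 4), and the genotypes overlapped (exact permutation test, p = 0.114, adjusted p = 0.171).

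**Figure D3:**
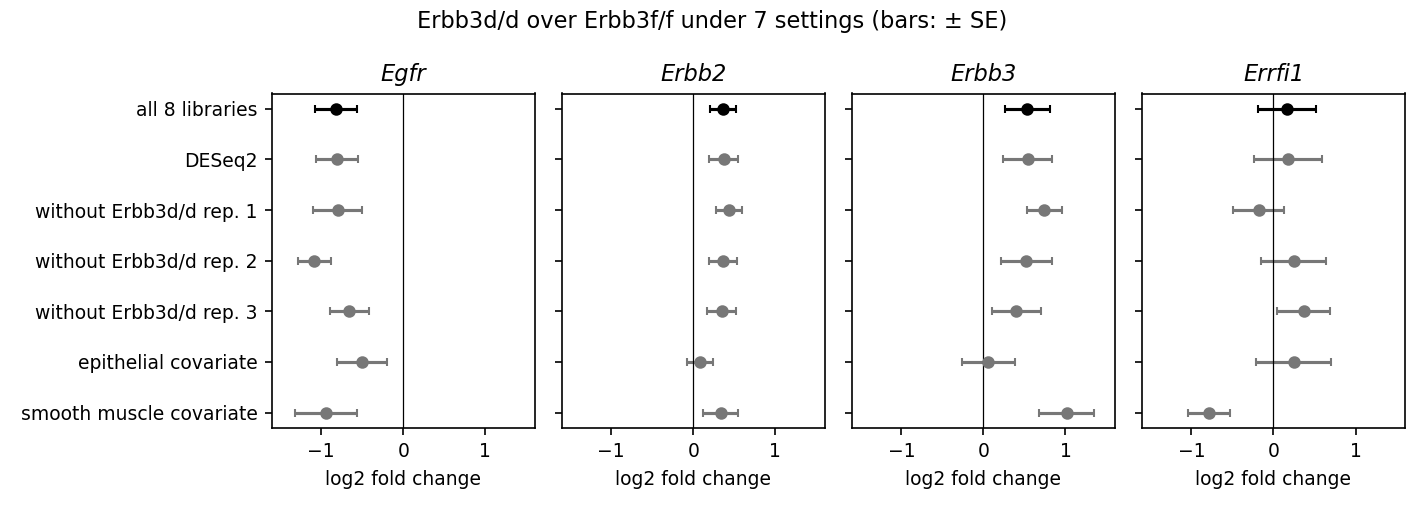
Log2 fold change of each tested member, Erbb3d/d over Erbb3f/f (x axis), with all 8 libraries and under 6 other settings (rows); bars are ± SE. Egfr stays below 0 in all rows, Erbb2 and Erbb3 move close to 0 with the epithelial covariate, and Errfi1 lies on both sides of 0.

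The sequence before the start of transcription was read for the members whose levels are compared here, because their starts differ in make-up. RefSeq promoter entries (GRCm38.p6) matched 4 of the 5 members, all but Erbb3, with 2 entries for Errfi1. The 250 bases before the start are shown for Egfr, Erbb2 and the second Errfi1 start, 5′ to 3′, all on the plus strand. Capitals mark 3 motifs searched on both strands: the GC box GGGCGG, the cAMP response element TGACGTCA and the TATA box TATAAA.
Egfr, chr11:16751953-16752202: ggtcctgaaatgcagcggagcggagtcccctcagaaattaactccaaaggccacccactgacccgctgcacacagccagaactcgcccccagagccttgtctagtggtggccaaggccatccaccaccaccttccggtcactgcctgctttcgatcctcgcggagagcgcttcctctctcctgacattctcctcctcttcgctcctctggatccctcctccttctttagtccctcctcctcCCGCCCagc
Erbb2, chr11:98412234-98412483: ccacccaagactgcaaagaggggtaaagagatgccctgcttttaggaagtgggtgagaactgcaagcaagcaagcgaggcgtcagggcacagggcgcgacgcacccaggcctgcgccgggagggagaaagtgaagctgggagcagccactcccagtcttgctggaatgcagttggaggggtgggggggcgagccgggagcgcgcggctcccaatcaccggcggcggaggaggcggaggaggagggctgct
Errfi1, chr4:150854820-150855069: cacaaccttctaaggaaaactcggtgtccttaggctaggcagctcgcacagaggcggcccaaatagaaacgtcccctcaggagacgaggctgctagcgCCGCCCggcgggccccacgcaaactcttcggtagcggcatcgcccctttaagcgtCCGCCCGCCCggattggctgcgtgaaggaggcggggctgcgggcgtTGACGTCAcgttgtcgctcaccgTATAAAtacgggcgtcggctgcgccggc
The Errfi1 stretch held the cAMP response element, found in 1.55% of the 32851 promoter entries at this length, a TATA box, found in 12.4%, and 3 GC box matches, of which 2 overlap each other. GC boxes were found in 32.7% of the entries, and the Egfr stretch held 1. The Erbb2 stretch held none of the 3 motifs, nor did the Erbb4 entry or the first Errfi1 entry. The GC content was 64.8% for the second Errfi1 start, 38% for the first, 60.8% for Egfr and 66.0% for Erbb2, against a median of 52.4%. A match describes the letters in this window and no binding was measured.

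Relations between members were taken over the 8 libraries, on log2(CPM + 0.5), for all 10 pairs. None passed 0.05 after adjustment over the 10 pairs. Erbb2 and Erbb3 had Pearson r = 0.66 (exact permutation p = 0.0684) and Spearman rho = 0.60 (exact permutation p = 0.132), with an adjusted p of 0.228 for r. Without the 2 libraries farthest from the median of Erbb2 r was 0.58, and after centring on each genotype's mean it was 0.49 (exact permutation within genotype, p = 0.229). Egfr and Erbb2 had r = -0.52 (exact permutation p = 0.174) and rho = -0.57 (p = 0.151 by exact permutation), and centred on genotype r was -0.02. Egfr and Errfi1 had r = 0.02 (exact permutation p = 0.957) and rho = 0.00 (p = 1.0 by exact permutation). Erbb3 and Errfi1 had r = -0.53 (exact permutation p = 0.181) and rho = -0.55 (p = 0.171 by exact permutation), with r = -0.08 without Erbb3d/d replicates 1 and 3 and r = -0.71 centred on genotype (exact permutation within genotype, p = 0.146). Pairs with Erbb4 rest on 2 libraries with any read and are not described.

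The members were also compared with the summed levels of 5 marker lists of other cell types, 25 relations in all. The largest was that of Erbb2 with the epithelial markers, with r = 0.91 (exact permutation p = 0.00228, adjusted p = 0.057) and rho = 0.86 (exact permutation p = 0.0107). It was 0.72 without Erbb3f/f replicate 3 and Erbb3d/d replicate 4, and 0.85 centred on genotype. Erbb3 had r = 0.76 with the same markers (exact permutation p = 0.0229, adjusted p = 0.223) and rho = 0.79 (exact permutation p = 0.0279), with r = 0.72 without the same libraries and 0.66 centred on genotype. Egfr had r = -0.74 (exact permutation p = 0.0345, adjusted p = 0.223) and rho = -0.71 (exact permutation p = 0.0576), with r = -0.79 without these libraries and -0.52 centred on genotype. Epithelial levels were highest in Erbb3d/d replicates 3 and 4, at 2428 and 2531 CPM, where Egfr was lowest and Erbb3 highest. Errfi1 had r = 0.03 with the epithelial markers (exact permutation p = 0.973), rho = 0.05 (exact permutation p = 0.935), and r = -0.605 without these libraries. With the smooth muscle markers Errfi1 had r = 0.70 (exact permutation p = 0.0614, adjusted p = 0.255) and rho = 0.43 (exact permutation p = 0.299), but r = 0.08 without Erbb3f/f replicate 3 and Erbb3d/d replicate 1, so the pooled relation rests on those libraries. Centred on genotype, with all 8 libraries, r was 0.86 (exact permutation within genotype, p = 0.0208, adjusted p = 0.203). Egfr had r = 0.56 with the endothelial markers (exact permutation p = 0.151) and rho = 0.55 (exact permutation p = 0.171). Centred on genotype, Egfr had r = 0.91 with them (exact permutation within genotype, p = 0.00347, adjusted p = 0.0867). Without centring, and with the mean log2 of that list in place of the sum, Egfr had r = 0.324 (exact permutation p = 0.429). The uncentred counterpart with the sum is the 0.56 above. None of the 25 relations to the sums passed 0.05 after adjustment. With the mean log2 of each list in place of the sum, 1 of the 25 passed. It was Erbb2 with the epithelial markers (r = 0.934, exact permutation, adjusted p = 0.036).

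**Figure D4:**
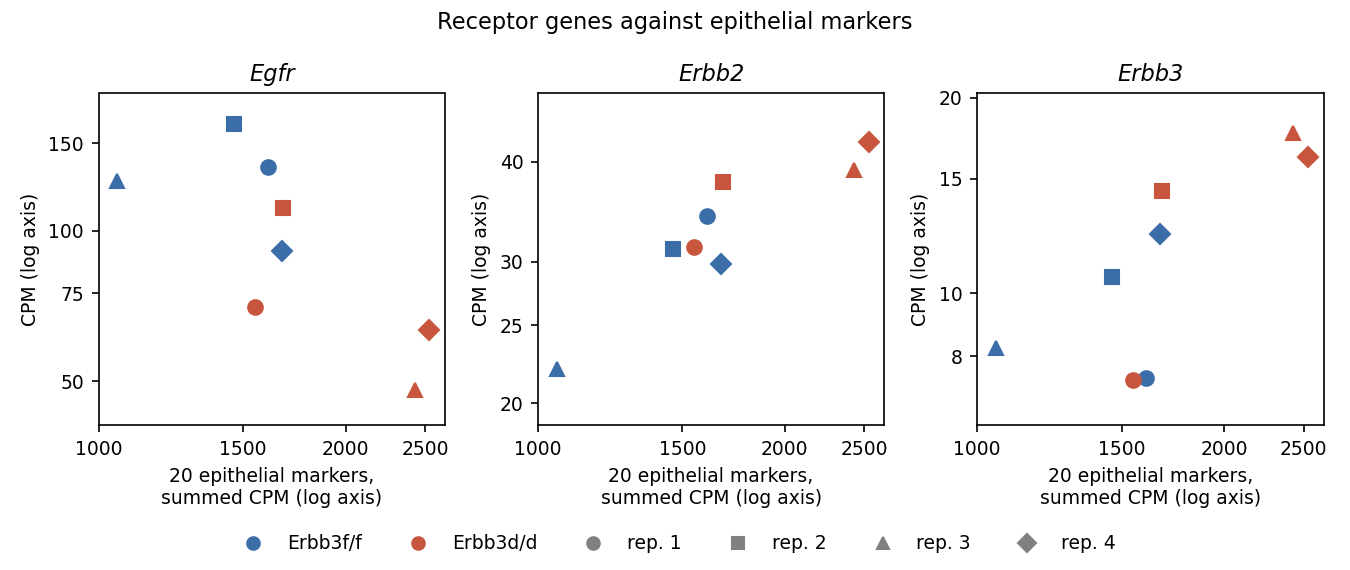
CPM of Egfr, Erbb2 and Erbb3 (y axis, log scale) against the summed CPM of 20 epithelial markers (x axis, log scale) in the 8 libraries. Colour marks the genotype and the symbol the replicate number. Erbb3d/d replicates 3 and 4 lie at the right in each panel, low in Egfr and high in Erbb2 and Erbb3.

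ERBB3 is also a receptor of Schwann cells, so 9 of their markers were read. Sox10 and Foxd3 of this list had 0 reads in all libraries, and 7 of the 9 markers were below 1 CPM on average. The sum of the list, 52.2 to 79.3 CPM in Erbb3f/f against 48.9 to 92.1 CPM in Erbb3d/d, was mainly Mbp, at 57.1 ± 13.1 and 66.0 ± 21.1 CPM (SD, n = 4). Egfr had r = -0.71 with this sum (exact permutation p = 0.0535, adjusted p = 0.255) and rho = -0.69 (exact permutation p = 0.0694). It was -0.62 without Erbb3d/d replicates 2 and 3, and -0.83 centred on genotype (exact permutation within genotype, p = 0.0417, adjusted p = 0.261). Without centring, and with the mean log2 of the list in place of the sum, r was -0.156 (exact permutation p = 0.735). The uncentred counterpart with the sum, which Mbp dominates, is the -0.71 above.

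The genes most like each member in pattern were taken by Pearson r over the 8 libraries among 14517 genes, as a description. For Egfr they were Aff3 (r = 0.99), Acad10, Tnfrsf21, Rbm8a and Edaradd, and 171 genes had an r above 0.9. For Erbb2 they were Cdkl1 (r = 0.96), Msx1as, Fzd6, Pax2 and Hoxb6, with 39 genes above 0.9. For Erbb3 they were Fam83g (r = 0.99), Lbr, Tmcc3, Zfp553 and Itga6, with 54 genes above 0.9. For Errfi1 they were Senp2 (r = 0.97), Traf7, Srpk2, Capn2 and Timm44, with 28 genes above 0.9. The 5 genes most like one member did not recur among those of another. This followed from the weaker correlations between the tested members, at most r = 0.66 (Erbb2 and Erbb3), and is no separate result.

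Other genes of the pathway were read in 5 lists. Genes of ERK feedback and ERK targets are known to be induced or used by signalling downstream of these receptors. The list was written with earlier results of these data known. Of its genes, 15 of 16 were higher in Erbb3d/d, against 7000 of all 14598 genes tested, and none passed the adjusted threshold in edgeR's test. Their median log2 fold change was 0.40, against -0.01 over all genes tested, and 7 had an unadjusted p under 0.05 with a higher level, against 6.64% of all genes. Dusp4, a phosphatase gene that acts on MAP kinases, had 5.36, 5.76, 8.17 and 9.16 CPM across Erbb3f/f replicates 1 to 4 against 11.5, 14.6, 25.5 and 21.3 CPM across Erbb3d/d replicates 1 to 4, with no overlap. Its log2 fold change came to 1.36 (SE 0.28; adjusted p = 0.183 by edgeR). Etv5, an ETS factor gene, did not overlap either, at 26.9 to 33.1 CPM in Erbb3f/f against 34.5 to 44.2 CPM in Erbb3d/d (log2 fold change 0.46, SE 0.12). Of all genes tested, 2.56% were higher in Erbb3d/d without overlap. Ier3, an early response gene, had a log2 fold change of 0.75 (SE 0.20), and Dusp6, the phosphatase of ERK, one of 0.40 (SE 0.14). The receptor-signalling inhibitors Spred2, Spry2 and Spred1 had log2 fold changes of 0.37, 0.40 and 0.20. These 7 genes had adjusted p-values of 0.183 to 0.428 in edgeR's test. Method and library mattered for the calls. Without Erbb3d/d replicate 2, Dusp4, Dusp6 and Ier3 had adjusted p-values of 0.0401, 0.0359 and 0.0308 in edgeR's test, in a fit that called 1.75% of its genes. DESeq2 on all 8 libraries called Dusp4, Etv5 and Ier3 (adjusted p = 0.00166, 0.0371 and 0.0256), against 1.79% of all genes. Fos, the most abundant gene of the list per kb, had 1289 ± 442 CPM in Erbb3f/f against 1800 ± 549 CPM in Erbb3d/d (SD, n = 4). Among the markers of other cells, 17 of 20 epithelial, 11 of 12 smooth muscle and 12 of 13 endothelial genes also had a positive log2 fold change. The endothelial sums overlapped between the genotypes. Of the immune markers tested 9 were higher and 5 lower, and of the stromal markers 6 were higher and 12 lower. None of these markers was called, and their part in the levels of this ERK list was not tested.

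Of the 11 ligand genes, 7 passed the filter on low counts, 5 of them higher and 2 lower in Erbb3d/d, and none passed the adjusted threshold in edgeR's test. Nrg1, a neuregulin gene whose products bind ERBB3 and ERBB4, had 2.14, 1.36, 4.71 and 5.54 CPM across Erbb3f/f replicates 1 to 4, against 9.14, 1.87, 21.7 and 14.1 CPM across Erbb3d/d replicates 1 to 4. The log2 fold change of Nrg1 came to 1.77 (SE 0.67; adjusted p = 0.370 by edgeR), and Erbb3d/d replicate 2 stood among the Erbb3f/f libraries. Nrg2 had the highest level per kb of the ligands, at 19.1 ± 3.04 CPM in Erbb3f/f against 19.8 ± 4.04 CPM in Erbb3d/d (SD, n = 4). Hbegf, a ligand gene known from implantation, had 21.1 ± 9.12 and 29.97 ± 5.66 CPM, and Tgfa 21.2 ± 7.39 and 29.6 ± 10.4 CPM (SD, n = 4).

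Genes that release ligands, couple receptors or take them down had list medians near that of all genes tested. The 5 sheddase and rhomboid-like genes had a median log2 fold change of 0.03, with 3 higher and 2 lower, and Adam12, the most abundant per kb, had 528 ± 64.4 CPM in Erbb3f/f against 385 ± 123 CPM in Erbb3d/d (SD, n = 4). The 10 adaptor genes had a median of -0.03, with 3 higher and 7 lower. Pik3r2, a regulatory subunit gene of PI3 kinase, had a log2 fold change of -0.23 (SE 0.10; adjusted p = 0.416 in edgeR's test), and Crk, the most abundant adaptor gene per kb, one of -0.02 (SE 0.10). The 13 genes of receptor restraint and turnover had a median of -0.03, with 5 higher and 8 lower. Among them Ptprj, a receptor phosphatase gene, had a log2 fold change of 0.42 (SE 0.18; adjusted p = 0.413 in edgeR's test), and Stub1, a ubiquitin ligase gene, one of -0.09 (SE 0.12). No gene of these 3 lists passed the adjusted threshold. Nrg1, Tgfa, Pik3r2 and Stub1 overlap exons on the other strand, so their counts are uncertain in the same way as that of Erbb2.

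**Figure D5:**
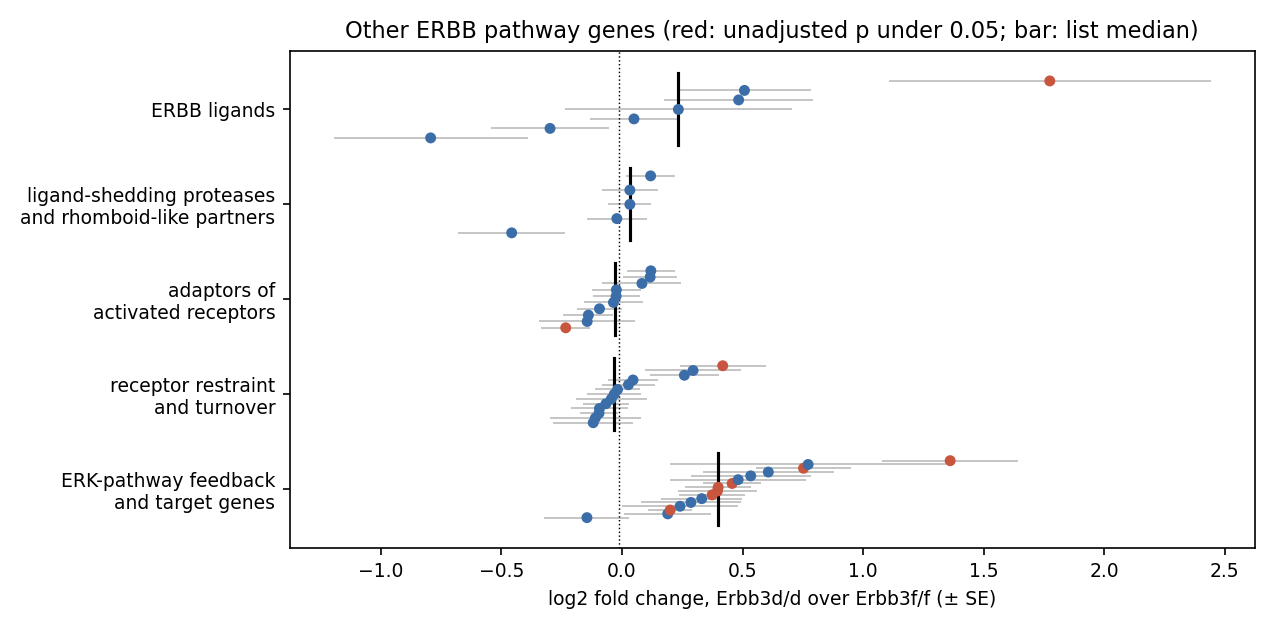
Log2 fold change, Erbb3d/d over Erbb3f/f (x axis), of the tested genes of 5 pathway lists (rows), with bars of ± SE. Red points have an unadjusted p under 0.05, short black bars are list medians and the dotted line is the median of all genes tested. The ERK feedback and target genes have a median of 0.40 and the other lists medians of -0.03 to 0.23.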

How the data were processed

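The authors deposited 1 table per library with the raw count of reads per gene symbol, without normalization. HISAT2, SAMtools, HTSeq and StringTie, with mm10 and GRCm38, are named in the submitters' processing notes without versions or roles; the annotation and the counting options are not given in the sources used here. The 5 closing lines that name no gene were left out; genes took 26.98% to 29.13% of entries. Per the labels' protocols, libraries were non-directional, with paired reads of 150 bp.

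Counts were analysed with edgeR 4.0.16 in R 4.3.3: filterByExpr, TMM scaling, and the quasi-likelihood test with genotype as the only term, with Benjamini-Hochberg adjustment over all 14598 genes. DESeq2 1.42.0, upper quartile scaling, another filter, marker covariates, a replicate block and leaving out each library were alternatives. Lengths and positions came from GENCODE vM21. Exact tests used all 70 assignments of libraries to genotypes for a difference, all 40320 pairings for a correlation, all 576 pairings within genotype for a centred one, and all 16 sign flips for the paired alternative. On simulated counts for this comparison (14472 genes), 84% of 100 genes changed 2-fold and 97% of 100 changed 4-fold were recovered, with 10 false calls. The changed genes were taken above a minimum level, and counts were drawn independently for each gene and library. No difference in cell content was simulated, so these shares need not hold for the real libraries.

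The members and lists were chosen with earlier results of these data known. All members are named; pathway genes are named if the unadjusted p was under 0.05 (at most 10) or the level per kb was the highest of their list, and genes most like a member by the 5 highest r. Hbegf and Tgfa, outside this rule, were named after their values were seen. Mbp is named as the most abundant marker of its list, and Sox10 and Foxd3 as markers at 0.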

Additional observations from a re-analysis of the deposited data

Results flagged for a closer look

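Dusp6 and Spred1, 2 genes of ERK feedback, each had 1 library apart from the others of its genotype. Dusp6 was at 61.6 CPM in Erbb3d/d replicate 2, and the closest Erbb3d/d library was at 88.7 CPM. Spred1 was at 79.2 CPM in Erbb3d/d replicate 1, and the closest was at 93.9 CPM. The gap was judged against the range of the genotype's 4 libraries in 52 sets of values, and chance gives about 2.6 such sets at 1 in 20.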

How the results depend on the processing

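Leaving out 1 library at a time, the log2 fold change ran from -1.09 to -0.66 for Egfr, from 0.25 to 0.45 for Erbb2, from 0.40 to 0.74 for Erbb3 and from -0.18 to 0.47 for Errfi1. The log2 ratio of Erbb3 to Erbb2 then differed by -0.08423 (without Erbb3f/f replicate 1) to 0.31, and by -0.006018 without Erbb3d/d replicate 3, the number of genes called ran from 0 to 259 and that of pathway genes from 0 to 3. The 259 genes and the 3 pathway genes were called without Erbb3d/d replicate 2, where Egfr had an adjusted p of 0.0355 by edgeR. With DESeq2, 262 genes and 3 pathway genes were called in place of 0, and with the Schwann cell covariate 21 genes; the cause was not tested. With the smooth muscle covariate Errfi1 was at -0.79. Erbb2 and Erbb3 kept their direction and stayed above the threshold of adjusted p in all 15 alternatives.

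Same-numbered libraries deviated together weakly, with correlations of 0.241, 0.172, 0.0998 and 0.152 for replicates 1 to 4, so the numbers were not taken as pairs. Between libraries of different number and genotype the correlations ran from -0.307 to 0.318, and most were negative. A factor shared by replicate number was not tested. With the replicate block, 52 genes and 2 pathway genes (Dusp4 and Ier3) were called. The block gave log2 fold changes of -0.85 for Egfr (SE 0.149, adjusted p = 0.0736 in edgeR's test) and 0.135 for Errfi1 (SE 0.085). Without the block the SE was 0.258 for Egfr and 0.353 for Errfi1. For the receptor shares the sign-flip test over same-numbered pairs cannot go below 0.125 (exact). Erbb3d/d replicate 3 correlated better with Erbb3f/f replicate 4 (0.318) than with its own number.

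Among the relations, Egfr with Errfi1 was -0.081 on the CPM scale. Centred on genotype, Errfi1 with epithelial markers was -0.075, and Egfr and Erbb4 with smooth muscle markers were 0.236 and -0.5. With the mean log2 of the list, Erbb3 was at 0.028 with smooth muscle and at -0.217 with Schwann cell markers, and Erbb2 with epithelial markers was at 0.934 and passed 0.05 after adjustment (exact permutation, adjusted p = 0.036). Few reads limit Erbb3 (75 to 224 per library) and Erbb4 (0 to 3).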

Other observations

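The 4 ligand genes below the filter on low counts had few reads over all 8 libraries together. Areg, the amphiregulin gene, had 70 reads, with 0.8805 ± 0.476 CPM for Erbb3f/f against 0.802 ± 0.267 CPM for Erbb3d/d (SD, n = 4). Epgn had 13 reads, Ereg 6 and Nrg3 4. Exons of Ereg overlap a gene on the other strand, so its reads are uncertain.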
